A study of Mus musculus with 160 samples.

Results

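The 31 genes described here encode products that megakaryocytes make and platelets carry. They form a named list, and each symbol was matched to its Ensembl identifier in the GENCODE mouse annotation, which found all 31 among the 46078 genes of the count table.

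Smart-seq2, which reads full-length cDNA from small numbers of cells, was applied to pools of 20 cells sorted from the aorta-gonads-mesonephros (AGM) region of mouse embryos. All embryos were Gata3-GFP +/-, so GFP stands for Gata3 expression and every group carries the same reporter allele. At E10.5, endothelial cells (ECs) were sorted by Cdh5 and the absence of CD41 and CD45, and haematopoietic cells (HCs) with a gate that the labels write as CD41+ CD45+ and the paper as CD41/45+. At E11.5, mesenchymal cells (MCs) were sorted by Pdgfrb and sympathetic nervous system (SNS) cells by Ngfr. Each cell type was split into Gata3-GFP+ and Gata3-GFP- cells, which gave 8 populations of 20 pools. Cells of several embryos had been combined before the sort, and no pool can be traced to a biological replicate. By the paper, the 20 pools of each E10.5 population came from far fewer biological replicates. The p-values below therefore measure the spread between pools and not between replicates.

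All but 7 of the 160 pools passed the limits of the study on reads and on their shares. Pools are numbered here by their order in the table. Counts on genes per passing pool ran from 1460179 to 16004756 in Gata3-GFP+ HCs, with a median of 3180193, and from 2010549 to 15700184 in Gata3-GFP- HCs, with a median of 3712267. Median counts were 3685639 in the 19 Gata3-GFP+ EC pools and 2801409 in the 20 Gata3-GFP- EC pools. The medians were 4225141 in 20 Gata3-GFP+ MC pools, 3640994 in 17 Gata3-GFP- MC pools, 4573354 in 18 Gata3-GFP+ SNS pools and 4353460 in 19 Gata3-GFP- SNS pools. Levels are CPM, the counts of a gene per 1000000 counts of its library after TMM scaling. A gene counted as higher or lower when its adjusted p was under 0.01 and its log2 fold change beyond 0.1.

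Megakaryocytes are haematopoietic cells that shed platelets into the blood. They fill granules with chemokines, adhesive proteins and coagulation factors, and they bear the receptors for von Willebrand factor, collagen, fibrinogen, thrombin, ADP and ATP with which platelets adhere, activate and aggregate. In the embryo they form early, and ECs make some of the same proteins, such as von Willebrand factor and multimerin.

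The sorted labels were compared with marker genes first. Gata3 had 12.7 CPM at the lowest, 45.1 at the median and 148.6 at the highest in Gata3-GFP+ HC pools, and 1.78, 7.02 and 12.9 in Gata3-GFP- HC pools. The highest Gata3-GFP- pool lay just above the lowest Gata3-GFP+ pool, and the other pools were apart. Ptprc, which encodes CD45, ran from 4.65 to 356 CPM in Gata3-GFP+ HC pools and from 298 to 643 in Gata3-GFP- HC pools, and it did not pass 25.9 in an EC pool. The 8 endothelial markers summed to 4204 CPM or more in every EC pool and to 596 or less in every HC pool.

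At E11.5 some pools went against their label. In pools 18, 19 and 20 of each of the 4 E11.5 populations, 12 pools in all, the summed markers of the other cell type were the higher ones. The 3 Gata3-GFP+ MC pools had 782 to 1107 CPM of the 7 sympathetic and neural crest markers and 485 to 696 of the 6 mesenchymal markers, where the other 17 had 6.54 to 34.2 and 3359 to 5172. The 3 Gata3-GFP- MC pools had 1425 to 3058 CPM of sympathetic and 81.3 to 201 of mesenchymal markers. Pools labelled SNS showed the reverse, with 16.04 to 35.4 CPM of sympathetic markers in the 3 Gata3-GFP+ SNS pools and 16.9 to 28.99 in the 3 Gata3-GFP- SNS pools. Gata3 itself reached 122.6 to 395 CPM in the 3 pools labelled Gata3-GFP- MC and only 9.96 to 24.3 in the 3 labelled Gata3-GFP+ SNS. The labels were kept, and the comparisons at E11.5 are given with and without these 12 pools, a step added after the data were seen.

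The first comparison asked which genes differed between Gata3-GFP+ and Gata3-GFP- HCs. Genes with 10 counts or more in 5 or more pools were tested, 16200 in all, and they included all 31 members. In Gata3-GFP+ HCs, 30 of the 31 were higher past the threshold, beside 17.1% of all genes tested. The median log2 fold change was 3.97 over the members and 0.05 over all genes tested. Selp, Gp6 and Trpc6 entered the test through the Gata3-GFP+ pools, since they reached 10 counts in 2, 3 and 3 Gata3-GFP- pools. The sizes of their log2 fold changes in HCs, here and below, are therefore uncertain. In pools of 20 cells, fewer cells of a type and less RNA per cell cannot be told apart.

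**Figure D1:**
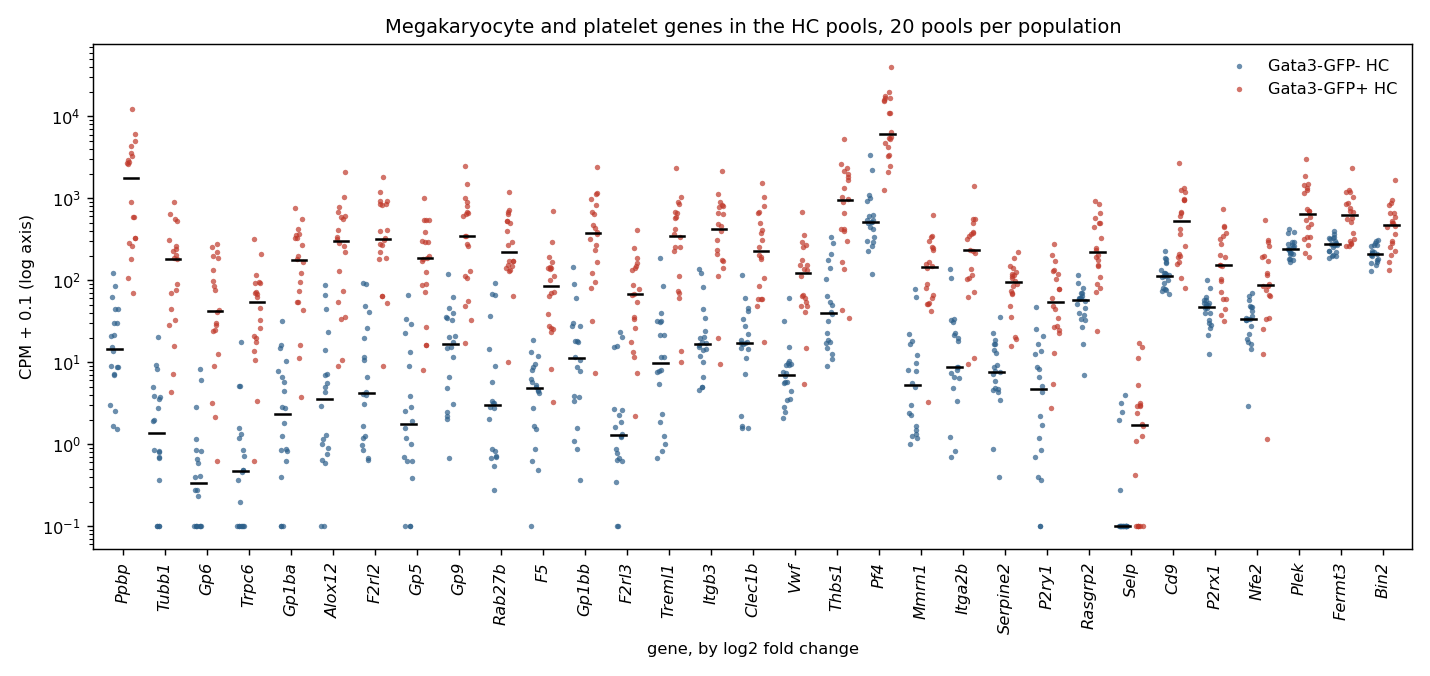
Each point is 1 pool, with the gene on the horizontal axis and CPM plus 0.1 on a log axis, and black bars mark the median of 20 pools. Gata3-GFP+ HC pools (red) lie mostly above Gata3-GFP- HC pools (blue) for every gene but Selp, and the clouds overlap at their edges for all 31.

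Pf4 and Ppbp encode chemokines that platelets store in their alpha granules. Pf4 had 1261 CPM in the lowest Gata3-GFP+ HC pool, 6035 at the median and 40008 in the highest, and 120, 516 and 3349 CPM in Gata3-GFP- HCs. Most Gata3-GFP+ pools, 16 of 20, lay above every Gata3-GFP- pool, and all 20 lay above the Gata3-GFP- median. The log2 fold change of Pf4 was 3.82 (SE 0.42, adjusted p 3.33e-09; here and below from the quasi-likelihood F-test of edgeR, adjusted after Benjamini-Hochberg). Ppbp had 69.5, 1764 and 12173 CPM in Gata3-GFP+ HCs against 1.43, 14.3 and 122.1 in Gata3-GFP- HCs. Only the lowest Gata3-GFP+ pools fell within the Gata3-GFP- range, and 18 of 20 were above it. Its log2 fold change of 6.55 (SE 0.69, adjusted p 1.39e-09) was the largest of the 31.

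The complex that binds von Willebrand factor is built from the products of Gp1ba, Gp1bb, Gp5 and Gp9. Gp1ba had 3.69, 175 and 759 CPM at the lowest, median and highest in Gata3-GFP+ HC pools and 0, 2.21 and 31.4 in Gata3-GFP- HC pools. In 17 of 20 Gata3-GFP+ pools it stood above all Gata3-GFP- pools. Gp9 had 16.9, 347 and 2460 CPM in Gata3-GFP+ HCs against 0.571, 16.5 and 117.8 in Gata3-GFP- HCs. For Gp9, 14 of 20 Gata3-GFP+ pools were above all Gata3-GFP- pools, and 16 were above them with Gata3-GFP- pool 1 set aside. Gp5 had 7.90, 186 and 1019 CPM in Gata3-GFP+ HCs against 0, 1.66 and 66.7 in Gata3-GFP- HCs, and 16 Gata3-GFP+ pools were above the rest. The log2 fold changes were 5.39 (SE 0.63) for Gp1ba, 4.51 (SE 0.58) for Gp9 and 4.78 (SE 0.68) for Gp5, with adjusted p values from 1.21e-08 to 4.80e-07. Gp1bb rose by a log2 fold change of 4.49, but 91.1% of its exon bases also belong to Sept5 on the same strand. Reads that fit both genes may have been set apart as ambiguous and counted for neither, and overlap settings are not stated. The level of Gp1bb is therefore uncertain.

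Stretches upstream of 5 members are shown. They come from the RefSeq promoter table (build GRCm38.p6), which held 26 stretches for 25 of the 31 members. No entry was found for Itgb3, Vwf, Nfe2, Rab27b, Bin2 and Thbs1. Each run is the 250 bases before the start, written 5′ to 3′ on the strand of the gene, with capitals for GATAA or its reverse complement TTATC and for GGAAG or its reverse complement CTTCC. Pf4 and Ppbp were picked by name, and Gp1ba, Gp5 and Gp9 from the members whose stretches held both motifs. The choice of these 5 was made after the values were seen. The stretches lie at chr5:90772185-90772434 (plus strand) for Pf4, chr5:90768268-90768517 (plus) for Ppbp, chr11:70638872-70639121 (plus) for Gp1ba, chr16:30310782-30311031 (minus) for Gp5 and chr6:87777820-87778069 (plus) for Gp9.
Pf4: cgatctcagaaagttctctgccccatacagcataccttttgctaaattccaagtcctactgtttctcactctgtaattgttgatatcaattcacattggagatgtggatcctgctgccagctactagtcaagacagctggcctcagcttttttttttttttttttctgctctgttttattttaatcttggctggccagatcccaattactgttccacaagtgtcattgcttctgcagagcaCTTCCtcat
Ppbp: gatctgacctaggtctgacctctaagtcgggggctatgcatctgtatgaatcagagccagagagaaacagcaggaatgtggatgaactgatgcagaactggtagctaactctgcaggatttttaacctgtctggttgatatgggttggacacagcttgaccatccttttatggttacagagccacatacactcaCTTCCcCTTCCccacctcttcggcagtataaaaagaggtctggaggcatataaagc
Gp1ba: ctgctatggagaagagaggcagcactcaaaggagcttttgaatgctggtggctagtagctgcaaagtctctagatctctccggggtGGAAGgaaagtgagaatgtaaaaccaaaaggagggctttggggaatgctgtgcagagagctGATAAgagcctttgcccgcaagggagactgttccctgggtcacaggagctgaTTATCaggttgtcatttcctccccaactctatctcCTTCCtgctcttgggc
Gp5: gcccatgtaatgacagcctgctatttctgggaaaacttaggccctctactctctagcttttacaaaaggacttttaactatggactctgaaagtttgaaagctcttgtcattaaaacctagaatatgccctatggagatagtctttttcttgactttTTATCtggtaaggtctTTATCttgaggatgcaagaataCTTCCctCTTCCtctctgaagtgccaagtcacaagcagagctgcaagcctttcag
Gp9: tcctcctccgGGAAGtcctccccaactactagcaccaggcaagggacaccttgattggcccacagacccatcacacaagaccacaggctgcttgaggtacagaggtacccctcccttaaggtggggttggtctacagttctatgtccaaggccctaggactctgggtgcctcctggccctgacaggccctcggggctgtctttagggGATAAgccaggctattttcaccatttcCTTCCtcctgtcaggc
Of the 5 runs shown, those of Gp1ba, Gp5 and Gp9 held both motifs, for which they were chosen. Those of Pf4 and Ppbp held GGAAG alone. No motif shared bases with another in these 5 runs. Among other receptor genes, the stretches of Gp1bb, Itga2b and Treml1 held GGAAG alone, and those of Gp6 and Clec1b held GATAA alone. GATAA or its complement occurred in 10 of the 26 member stretches (38.5%) and in 22.6% of all 32817 stretches of the same length. The shares for GGAAG were 80.8% of member stretches, 21 of 26, and 64.1% of all, and both motifs together occurred in 6 of 26 (23.1%) and in 13.2% of all. TGTGGT or ACCACA occurred in 2 member stretches (7.7%) and in 14.04% of all, and TGAGTCA or TGACTCA in 1 (3.8%) and in 4.5% of all. These matches describe letters in a window and no binding was measured.

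Itga2b and Itgb3 encode the chains of the fibrinogen receptor, and Itga2b is CD41, a protein of the sort itself. Itga2b had 9.48, 232 and 1411 CPM at the lowest, median and highest in Gata3-GFP+ HC pools and 0.596, 8.65 and 135.8 in Gata3-GFP- HC pools. Both HC populations passed the same gate, and 13 of 20 Gata3-GFP+ pools exceeded every Gata3-GFP- pool. Itgb3 had 9.48, 424 and 2153 CPM in Gata3-GFP+ HCs against 4.47, 16.8 and 135.4 in Gata3-GFP- HCs. Apart from 3 pools, its Gata3-GFP+ levels were above the whole Gata3-GFP- range. The log2 fold changes were 3.68 (SE 0.56, adjusted p 1.40e-06) for Itga2b and 4.10 (SE 0.51, adjusted p 5.07e-08) for Itgb3.

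Gp6 and Clec1b encode the receptors for collagen and for podoplanin, and Treml1 a receptor held in alpha granules. Gp6 had 0.527, 42.1 and 279.5 CPM at the lowest, median and highest in Gata3-GFP+ HC pools and 0, 0.239 and 8.23 in Gata3-GFP- HC pools. It was close to absent from Gata3-GFP- pools and above all of them in 17 of 20 Gata3-GFP+ pools. Its log2 fold change was 6.20 (SE 0.69), and those of Clec1b and Treml1 were 3.97 and 4.29. Median levels went from 16.97 to 229 CPM for Clec1b and from 9.62 to 350.4 CPM for Treml1 between Gata3-GFP- and Gata3-GFP+ HCs. Cd9, a tetraspanin of the platelet surface that other cells also make, rose by a log2 fold change of 2.47, from a median of 114.3 to 521 CPM. On its opposite strand Gm26728 shares 10.7% of the exon bases of Cd9, which matters if the counts ignored strand.

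Selp, which encodes P-selectin, was the exception. It had 0, 1.62 and 16.9 CPM at the lowest, median and highest in Gata3-GFP+ HC pools and 0, 0 and 3.93 in Gata3-GFP- HC pools. Only 4 of 20 Gata3-GFP+ pools were above every Gata3-GFP- pool, and it reached 10 counts in 7 Gata3-GFP+ pools. Its log2 fold change was 2.60 (SE 0.85) with an adjusted p of 0.0135, which missed the threshold. When all E10.5 pools were fitted in 1 model, Selp did pass the threshold. The opposite-strand gene Gm16548 overlaps 9.93% of its exon bases.

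Receptors for soluble agonists followed the same direction in HCs. F2rl2 and F2rl3 encode receptors cleaved by thrombin, P2ry1 a receptor for ADP and P2rx1 a channel opened by ATP. F2rl2 had 8.95, 317 and 1835 CPM at the lowest, median and highest in Gata3-GFP+ HCs against 0.540, 4.09 and 92.2 in Gata3-GFP- HCs. It was above the Gata3-GFP- range in 16 of 20 Gata3-GFP+ pools. Medians of the other 3 went from 1.19 to 67.02 CPM for F2rl3, from 4.67 to 54.5 for P2ry1 and from 47.2 to 153.9 for P2rx1. The log2 fold changes were 4.79 for F2rl2, 4.37 for F2rl3, 3.20 for P2ry1 and 2.22 for P2rx1. Gm37035 on the opposite strand shares 23.1% of the exon bases of P2ry1.

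Thbs1, Vwf, F5, Mmrn1 and Serpine2 encode secreted proteins: thrombospondin, von Willebrand factor, coagulation factor V, multimerin, which binds factor V, and an inhibitor of thrombin. Thbs1 had 34.2, 949 and 5231 CPM at the lowest, median and highest in Gata3-GFP+ HCs against 9.004, 39.8 and 333 in Gata3-GFP- HCs. Of its 20 Gata3-GFP+ pools, 15 lay above all Gata3-GFP- pools. Vwf had 5.27, 122.3 and 690 CPM in Gata3-GFP+ HCs against 1.998, 6.93 and 60.5 in Gata3-GFP- HCs, with 14 pools above. The 5 log2 fold changes ran from 3.24 for Serpine2 to 4.49 for F5, with Mmrn1 at 3.74, Thbs1 at 3.90 and Vwf at 3.91. F5 and Mmrn1 had medians of 4.71 and 5.16 CPM in Gata3-GFP- HCs against 85.5 and 144.7 in Gata3-GFP+ HCs. Serpine2 varied least of the 5 between Gata3-GFP+ HC pools, from 15.8 to 221 CPM around a median of 94.3, and 17 of them exceeded the Gata3-GFP- maximum of 35.1.

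Members that act inside the cell differed widely in how much they rose. Tubb1, the beta-tubulin of the platelet rim, had 4.21, 182 and 903 CPM at the lowest, median and highest in Gata3-GFP+ HC pools and 0, 1.29 and 20.4 in Gata3-GFP- HC pools. It exceeded the Gata3-GFP- range in 17 of 20 Gata3-GFP+ pools, with a log2 fold change of 6.24 (SE 0.65). Bin2, which encodes a protein that bends membranes, had 133.6, 478 and 1681 CPM in Gata3-GFP+ HCs against 129.2, 211 and 314 in Gata3-GFP- HCs. Its lowest pools were alike in both populations, and 13 of 20 Gata3-GFP+ pools were above the Gata3-GFP- range. The log2 fold change of Bin2, 1.28 (SE 0.21, adjusted p 6.05e-06), was the smallest of the 30.

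Plek, a substrate of protein kinase C, and Fermt3, which activates integrins, reached 10 counts in every pool of both populations, as Bin2 did. Plek had 194, 644 and 3005 CPM in Gata3-GFP+ HCs against 169, 239.6 and 424 in Gata3-GFP- HCs. Fermt3 had 262, 622 and 2330 CPM in Gata3-GFP+ HCs against 186, 274 and 396 in Gata3-GFP- HCs. Their log2 fold changes were 1.78 and 1.41, and 14 and 13 Gata3-GFP+ pools were above the Gata3-GFP- range. Rasgrp2, an exchange factor for Rap, rose by 2.60, Alox12, a lipoxygenase, by 4.99, and the channel gene Trpc6 by 5.45 on the log2 scale. The median of Alox12 was 3.51 CPM in Gata3-GFP- HCs against 302 in Gata3-GFP+ HCs. Rab27b, which serves granule traffic, rose by 4.50 from a median of 2.88 CPM to 220.2. Nfe2, a transcription factor of late megakaryocyte maturation, had 1.05, 88.02 and 549 CPM in Gata3-GFP+ HCs against 2.86, 33.5 and 69.5 in Gata3-GFP- HCs. The lowest Nfe2 level of all 40 pools was in a Gata3-GFP+ pool, and its log2 fold change was 2.01 (SE 0.38, adjusted p 4.76e-05). With scanpy's t-test and the thresholds used here, Nfe2 did not pass.

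Per kilobase of exon, the order of median levels in Gata3-GFP+ HCs was led by Pf4 at 8371 CPM per kb and Ppbp at 1629. Gp9 followed at 393, Cd9 at 255 and Treml1 at 249.9 CPM per kb. Gp6 at 7.14 and Selp at 0.366 CPM per kb were the lowest. Pf4 alone made up 29.6% to 64.7% of the members' summed CPM in a Gata3-GFP+ HC pool, with a median of 46.5%.

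No member had separate ranges in the 2 HC populations. Between 4 (Selp) and 18 of the 20 Gata3-GFP+ pools were above all 20 Gata3-GFP- pools, with a median of 15 over the members, and 30 members had 10 or more such pools. For 16 members all 20 Gata3-GFP+ pools exceeded the Gata3-GFP- median. Such counts of pools were not made for all genes tested, so how unusual they are is not known. In a Gata3-GFP+ HC pool, 21 to 31 members reached 10 counts, with a median of 30. In a Gata3-GFP- HC pool it was 13 to 31 members, with a median of 23.5.

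The summed level of the members was 3132 CPM in the lowest Gata3-GFP+ HC pool, 17723 at the median and 92999 in the highest, and 1141, 1696 and 6786 CPM in Gata3-GFP- HCs. Gata3-GFP+ HC pool 15 held the highest level of 29 of the 31 members, Selp and Serpine2 being the others, and the members took 7.30% of its counts on genes. Pool 1 of the same population alone held the lowest level of 26 members, and pool 2 that of 3. Among Gata3-GFP- HCs, pool 1 held the highest level of 23 members. Without it the Gata3-GFP- maximum was 63.1 CPM for Gp9, 16.1 for Gp1ba, 33.7 for Gp5, 9.21 for Tubb1 and 31.4 for Vwf. The count of Gata3-GFP+ pools above that maximum was then 16 for Gp9 and 18 for Vwf. Leaving out each Gata3-GFP+ HC pool in turn kept 30 members past the threshold in all 20 fits, and without pool 15 the log2 fold change of Ppbp was 6.22 and that of Pf4 3.59.

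**Figure D2:**
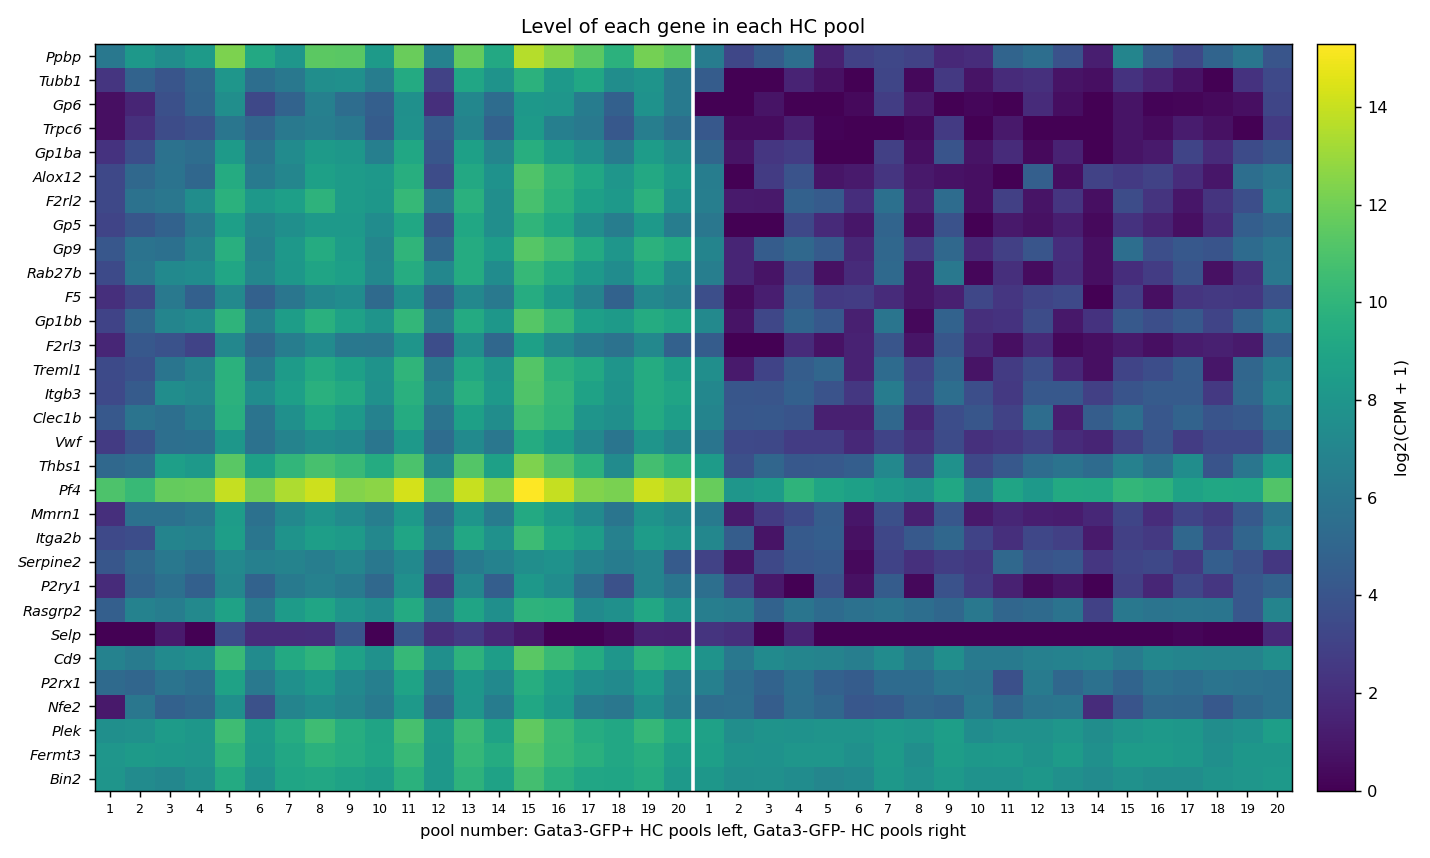
Each cell is log2 of CPM plus 1 for 1 gene (vertical) in 1 HC pool (horizontal), with the 20 Gata3-GFP+ pools left of the white line and the 20 Gata3-GFP- pools right of it. Gata3-GFP+ pool 15 is brightest for 29 genes, and pools 1, 2 and 12 are the dimmest Gata3-GFP+ columns.

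Markers of other haematopoietic cells varied between pools too. The 12 macrophage markers, all above 0 in the median pool of both populations, summed to 248 CPM at the lowest, 5651 at the median and 12432 at the highest in Gata3-GFP+ HC pools and to 5849, 7927 and 12496 in Gata3-GFP- HC pools. The lowest of these sums was in Gata3-GFP+ pool 15, where Ptprc was also lowest at 4.65 CPM, and the highest Gata3-GFP+ sum was in pool 1. Of the 12 markers, 3 were lower in Gata3-GFP+ HCs, Csf1r by a log2 fold change of -0.76, Lyz2 by -1.53 and Cx3cr1 by a value between them, and 9 did not pass. Without Gata3-GFP+ pool 20 the log2 fold change of Csf1r was again -0.76, but its adjusted p of 0.0125 missed the threshold, and 2 were lower. C1qb, the one with most CPM, had medians of 1609 and 1786 CPM and a log2 fold change of -0.34. The part of macrophage content in the members' levels was not tested.

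**Figure D3:**
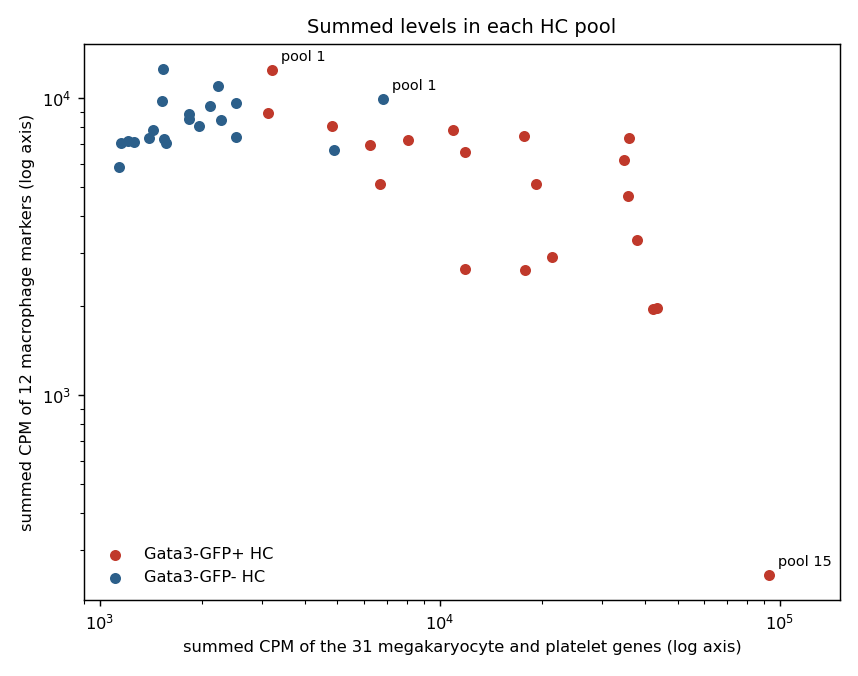
Each point is 1 HC pool, with the summed CPM of the 31 genes on the horizontal axis and of 12 macrophage markers on the vertical axis, both on log axes. Gata3-GFP+ pool 15 sits at 92999 and 248, and all Gata3-GFP- pools sit at or above 5849 on the macrophage axis.

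Granulocyte markers were lower in Gata3-GFP+ HCs for all 7 of 9 that could be tested, with log2 fold changes of -6.91 for S100a8, the one with most CPM, and -8.05 for Camp. These sizes are uncertain, since Camp, Elane and Ngp reached 10 counts in none, 1 and 2 of the Gata3-GFP+ HC pools and entered the test through the Gata3-GFP- ones, and pool 4 of Gata3-GFP- HCs alone had 15675 CPM of S100a8, around a median of 147.6, and 2080 CPM of Camp, around a median of 2.12. Their sums were 7.79, 37.2 and 378 CPM at the lowest, median and highest in Gata3-GFP+ HC pools and 66.3, 1288 and 30134 in Gata3-GFP- HC pools, and Elane, Ctsg, Ltf and Ngp were at 0 in the median Gata3-GFP+ pool. Of 9 progenitor markers, Ptprc (-1.09), the one with most CPM, Myb (-1.88) and Cd34 (-1.28) were lower on the log2 scale and 6 did not pass, and Gfi1 had a median of 0 in Gata3-GFP- HCs. Their sums were 143.4, 433 and 607 CPM at the lowest, median and highest in Gata3-GFP+ HC pools and 588, 746 and 966 in Gata3-GFP- HC pools. Among 8 erythroid markers tested, Epor, the one with most CPM, was higher (2.40) and Klf1, with 10 counts in 2 Gata3-GFP+ HC pools, lower (-3.03). Erythroid sums were 13.8, 99.8 and 322 CPM in Gata3-GFP+ and 4.34, 30.8 and 1437 in Gata3-GFP- HC pools, the last in the pool 1 that held the top level of 23 members, with Slc4a1 at a median of 0 in both. Of 3 lymphoid markers tested, Cd3g was higher (4.23) but reached 10 counts in only 4 Gata3-GFP+ HC pools and could not be tested without pool 20, and Il7r, the one with most CPM, was not past the threshold at 0.78. Lymphoid sums were 4.65, 17.3 and 102.9 CPM in Gata3-GFP+ and 3.36, 15.9 and 39.5 in Gata3-GFP- HC pools, and the medians of Cd3e, Cd3g and Cd79a were 0 in both populations.

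Most markers listed for non-haematopoietic cells were higher in Gata3-GFP+ HCs. Of 8 endothelial markers 6 rose, with Esam at a log2 fold change of 4.16, while Egfl7, the one with most CPM, had -0.12, and their sums were 93.8, 195 and 596 CPM in Gata3-GFP+ and 47.1, 87.1 and 170.4 in Gata3-GFP- HC pools. The maximum of 596 was in Gata3-GFP+ pool 15, which held the highest level of 29 members. Esam alone gave 331 of these 596 CPM and, like most members, was lowest in Gata3-GFP+ pool 1. Whether its rise came from ECs was not tested. All 6 mesenchymal markers rose, with Col3a1 the one with most CPM (3.04) and Pdgfra the most changed (3.72), and all 7 sympathetic markers rose, with Dbh the one with most CPM (4.43) and Th the most changed (7.40). Of the mesenchymal markers, Twist2 reached 10 counts in 13 Gata3-GFP+ but only 4 Gata3-GFP- HC pools and entered the test through the former. Sympathetic sums were 1.12, 31.95 and 1249 CPM at the lowest, median and highest in Gata3-GFP+ HC pools and at most 8.89 in Gata3-GFP- HC pools, where several of these markers had a median of 0, Sox10 among them. Mesenchymal sums were 15.3, 298 and 895 CPM in Gata3-GFP+ HCs against 2.68, 26.4 and 156.7 in Gata3-GFP- HCs. The sympathetic maximum was in pool 20, which also had the highest Gata3 level of its population, 148.6 CPM. Without that pool 6 of the 7 sympathetic markers could be tested and all 6 were higher, with Dbh at 3.38 and Th at 6.20, and all but Dbh had reached 10 counts in fewer than 5 Gata3-GFP- HC pools, so the sizes of these rises are uncertain. The part of such cells in the comparison was not tested.

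Of 40 further megakaryocyte and platelet genes, 39 could be tested, and 25 were higher, beside 17.1% of all genes, and 3 lower, beside 9.53%, in Gata3-GFP+ HCs, with a median log2 fold change of 2.25. Of the 25, Cd226, Gucy1a1, Itga2 and Ptgir reached 10 counts in fewer than 5 Gata3-GFP- HC pools and entered through the Gata3-GFP+ ones. Tuba4a had the most CPM (2.45), Ly6g6f rose most (5.53) and F13a1 fell most (-1.07). Regulators of the lineage went both ways on the log2 scale: Gfi1b (3.04), Gata1 (2.75) and Zfpm1 (1.86) were higher, Mef2c (-0.84) was lower, and Tal1 (0.94, adjusted p 0.0132), Fli1 (0.35, adjusted p 0.0637) and Lyl1 (-0.05) did not pass.

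The same comparison in ECs gave mixed directions. Of the 31 members 28 could be tested, without Gp5, Gp6 and Selp. Past the threshold, 9 were higher in Gata3-GFP+ ECs, beside 19.5% of all genes, 5 were lower, beside 16.5%, and 14 were neither. The median log2 fold change was 0.07 over these 28 and 0.10 over all 15073 genes tested. Scaling by the ERCC spike-in RNAs moved the median of all genes from 0.10 to -0.60, and with that scaling 5 members were higher, beside 6.31% of all genes, and 6 lower, beside 37.7%. Every member called by both scalings kept its direction. With TMM scaling all 5 mesenchymal markers tested were higher in Gata3-GFP+ ECs, with a median log2 fold change of 3.36. Of 8 progenitor markers 5 were higher, and of 8 endothelial markers 7 were higher and 1 lower. No macrophage or granulocyte marker passed. Pdgfra, Pdgfrb and Col1a1 reached 10 counts in fewer than 5 Gata3-GFP- EC pools. Mesenchymal sums in Gata3-GFP+ ECs had a median of 71.8 CPM and a maximum of 1491 in pool 2. The part of such cells was not tested.

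Vwf and Alox12 rose most in ECs. Vwf had 1122, 1418 and 2751 CPM at the lowest, median and highest in Gata3-GFP+ EC pools and 19.9, 47.6 and 144.97 in Gata3-GFP- EC pools, so the ranges did not touch. For Vwf the log2 fold change was 4.67 (SE 0.22, adjusted p 2.25e-21). Alox12 had 17.5, 70.2 and 118.2 CPM in Gata3-GFP+ ECs against 0.328, 2.88 and 20.1 in Gata3-GFP- ECs, and its ranges met only at their edges. The log2 fold change of Alox12 was 4.11 (SE 0.34). Gp1ba (2.33), P2rx1 (1.98), Itgb3 (1.97), Rab27b (1.76), Fermt3 (1.70), Nfe2 (1.69) and Serpine2 (0.81) were also higher on the log2 scale. Gp1ba, Nfe2 and P2rx1 reached 10 counts in fewer than 5 Gata3-GFP- EC pools and entered the test through the Gata3-GFP+ ones. With ERCC scaling Nfe2, P2rx1, Fermt3 and Serpine2 no longer passed, and Cd9 was called lower.

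Mmrn1 and Clec1b fell most in Gata3-GFP+ ECs. Mmrn1 had 0, 15.6 and 116.7 CPM at the lowest, median and highest in Gata3-GFP+ EC pools and 150.1, 186 and 256 in Gata3-GFP- EC pools, with no overlap. Clec1b had 1.12, 19.8 and 179 CPM in Gata3-GFP+ ECs against 135.04, 178 and 293 in Gata3-GFP- ECs, and only its highest Gata3-GFP+ level reached into the other range. The log2 fold changes were -3.13 (SE 0.38, adjusted p 4.20e-09) and -2.77 (SE 0.36, adjusted p 1.65e-08). F2rl3 (-1.41), Trpc6 (-1.26) and Rasgrp2 (-0.55) were lower too. These 5 genes were higher in Gata3-GFP+ HCs.

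The difference between the HC and EC differences was tested in a fit of the 4 E10.5 populations, in which all 31 members could be tested. For 25 members it passed the threshold, beside 22.7% of all genes tested, and all 25 had the larger rise in HCs. Gp6 (7.03), Mmrn1 (6.86), Ppbp (6.80), Tubb1 (6.73) and Clec1b (6.72) had the largest log2 differences. Tubb1 reached 10 counts in 2 Gata3-GFP+ and 3 Gata3-GFP- EC pools. Gp6 reached 10 counts in 18 Gata3-GFP+ HC pools but in only 3 Gata3-GFP- HC and 1 of all EC pools, so it entered through the group where it is high, and the sizes of both differences are uncertain. Vwf (-0.76, adjusted p 0.216), Fermt3 (-0.31), P2rx1 (0.22), Nfe2 (0.28), Alox12 (0.87) and Selp (3.05, adjusted p 0.0743) did not pass. With ERCC scaling the median of all genes moved from 0.11 to 0.75, and 25 members passed there too, beside 32.3% of all genes.

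Gata3-GFP+ HCs were then set against Gata3-GFP+ ECs. Of the 31 members, 30 were higher in HCs, beside 24.7% of all genes tested, and Vwf was lower with a log2 fold change of -3.33 (SE 0.34), beside 18.6%. The median log2 fold change was 5.11 over the members and 0.09 over all genes, and ERCC scaling moved the median of all genes to 0.81. Gp6 (8.04), F2rl2 (7.84), Gp1bb (7.79) and Ppbp (7.78) differed most, and Serpine2 (1.09) least among the 30. Gp5, Gp6, Tubb1, Selp and F2rl2 reached 10 counts in fewer than 5 Gata3-GFP+ EC pools and entered the test through the HC pools, so the sizes of their differences are uncertain. Itga2b (6.12) encodes a protein of the gate, and its difference cannot be taken apart from the sort.

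Several members had near the same low share of their HC level in both EC populations. The mean of Pf4 was 0.855% of its mean over the HC pools in Gata3-GFP+ ECs against 1.04% in Gata3-GFP- ECs. For Ppbp the shares were 0.908% and 1.03%, and for Plek 0.973% and 1.19%. Macrophage markers had medians of 1.05% and 1.31% in the same pools, and granulocyte markers 1.02% and 0.962%. The members as a list had medians of 5.53% and 1.64%, and Vwf (1861%), Mmrn1 (203%) and Clec1b (94.5%) stood at the top in their higher EC population. Whether HC RNA or HCs in the EC pools gave the low shares was not tested.

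**Figure D4:**
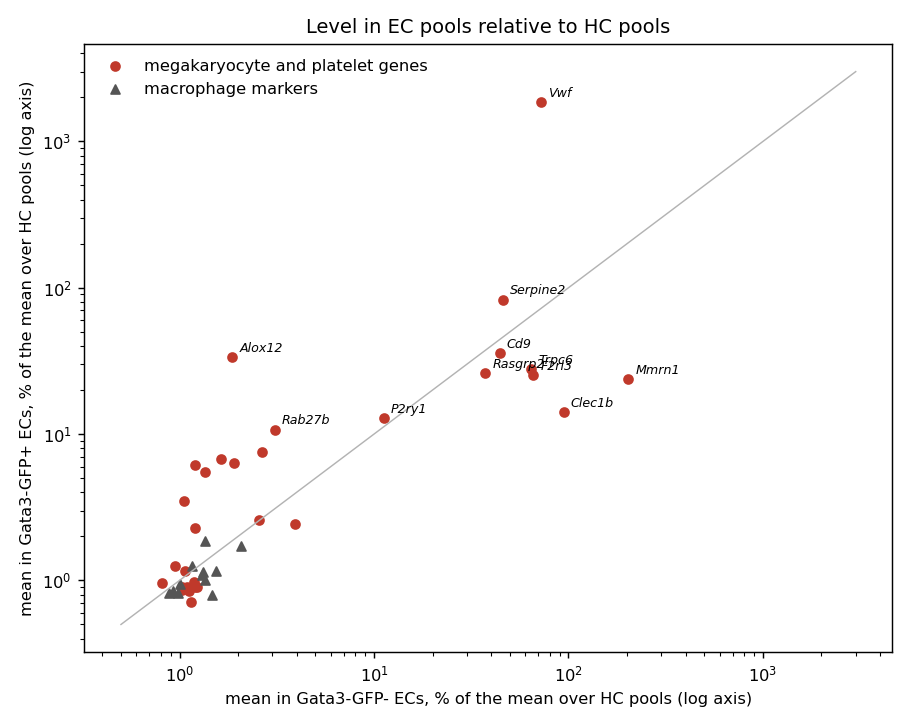
Each point is 1 gene, with its mean CPM in Gata3-GFP- ECs (horizontal) and in Gata3-GFP+ ECs (vertical) as a percent of its mean over all HC pools, on log axes with a line of equality. Macrophage markers (triangles) and part of the 31 genes (circles) gather near 1% in both, while Vwf and Alox12 lie above the line and Mmrn1 and Clec1b below it.

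Over all 8 populations, 28 members had their highest mean level in Gata3-GFP+ HCs. Vwf was highest in Gata3-GFP+ ECs, with a mean of 1556 CPM against 156.7 in Gata3-GFP+ HCs. Mmrn1 had a mean of 173 CPM in Gata3-GFP+ HCs against 188 in Gata3-GFP- ECs, a smaller gap than the spread between HC pools. Serpine2 was highest in the pools labelled Gata3-GFP+ SNS, with a mean of 543 CPM, which was 618 without the 3 pools that went against their label. Pools labelled Gata3-GFP- SNS were close, at 498 CPM, or 546 without such pools. The difference between these SNS populations did not pass the threshold in either case. At E11.5 most members were near 0, with a median of 6 to 8 of the 31 reaching 10 counts in a pool, both with and without the 12 pools.

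**Figure D5:**
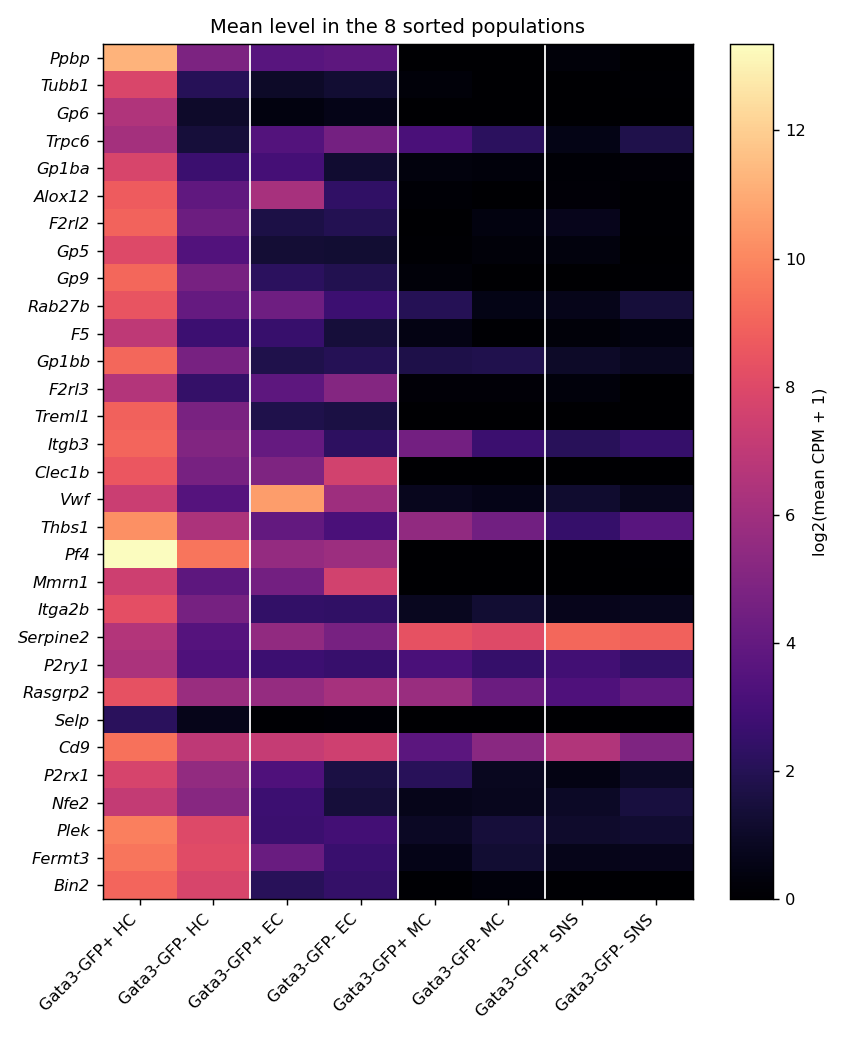
Colour shows log2 of the mean CPM plus 1 for each gene (vertical) in the 8 sorted populations (horizontal), with all passing pools under their given labels. The Gata3-GFP+ HC column is the brightest for 28 genes, and Vwf, Mmrn1 and Serpine2 are brightest elsewhere.

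Pf4 had no count in the 20 Gata3-GFP+ MC, 17 Gata3-GFP- MC and 18 Gata3-GFP+ SNS pools, and in Gata3-GFP- SNS its highest pool had 1.02 CPM. A count of 0 over the 93735838 counts of the Gata3-GFP+ MC pools allows a level of up to 0.0320 CPM, or 0.0385 without the 3 pools that went against their label, by 3 counts and for counting error alone. Treml1 had no count in any E11.5 pool.

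In MCs 13 members could be tested and 1, Rasgrp2, passed the threshold, beside 4.36% of all genes. It had 1.90, 55.7 and 90.4 CPM at the lowest, median and highest in Gata3-GFP+ MC pools and 1.09, 15.6 and 39.03 in Gata3-GFP- MC pools. The log2 fold change was 1.53 (SE 0.39, adjusted p 0.00891). Without the 6 MC pools that went against their label, 12 members could be tested and 3 passed, beside 10.4% of all genes. These were Rasgrp2 (1.53, adjusted p 0.000280), Itgb3 (1.93, adjusted p 0.00362) and Thbs1 (0.98, adjusted p 0.000693), all higher in Gata3-GFP+ MCs. Rasgrp2 then ran from 28.3 to 90.4 CPM in 17 Gata3-GFP+ MC pools and from 1.09 to 39.03 in 14 Gata3-GFP- MC pools, so the lowest levels belonged to Gata3-GFP- pools alone.

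In SNS cells 12 members could be tested and 1, Cd9, passed, beside 3.87% of all genes. Cd9 had 3.62, 104.8 and 166 CPM at the lowest, median and highest in Gata3-GFP+ SNS pools and 2.45, 27.9 and 77.4 in Gata3-GFP- SNS pools. Its log2 fold change was 1.72 (SE 0.38, adjusted p 0.00297). Without the 6 SNS pools that went against their label, 10 members could be tested and 2 passed, beside 10.4% of all genes. Cd9 was higher by 1.75 (adjusted p 2.35e-07), with 70.6 to 166 CPM in 15 Gata3-GFP+ pools and 4.80 to 77.4 in 16 Gata3-GFP- pools. Trpc6 had 0, 0 and 0.644 CPM in those Gata3-GFP+ pools and 0, 0.333 and 11.3 in the Gata3-GFP- pools, and was lower by a log2 fold change of -3.78 (adjusted p 0.00343). It reached 10 counts in 7 of the Gata3-GFP- pools and in none of the Gata3-GFP+ pools, so it entered the test through the group where it is higher and the size of its fall is uncertain. ERCC scaling of all SNS pools moved the median of all genes from -0.00 to 0.35, and Cd9 passed with it too, beside 6.28% of all genes.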

How the data were processed

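The authors sequenced Smart-seq2 libraries of 160 pools of 20 cells with ERCC spike-in RNAs and deposited HTSeq counts per Ensembl gene, neither normalized nor filtered. The paper names STAR as the aligner and the processing notes name GSNAP with HTSeq 0.5.3p3 and mm10. Strand and overlap settings are not stated. Of aligned reads, 20.6% were ambiguous and 15.3% on no feature, and 22.6% of all reads were not aligned. Pools were assigned by column header, and 7 failed the study's limits. Tests ran in edgeR 4.0.16 under R 4.3.3 (TMM, robust quasi-likelihood fits, Benjamini-Hochberg over all genes tested, at least 10 counts in at least 5 pools), after a test on simulated counts. Alternatives were RLE, ERCC and scran 1.30.0 size factors, other gene filters and thresholds, DESeq2 1.42.0, scanpy 1.11.5, all pools, and each Gata3-GFP+ HC pool left out. Leaving out the 12 E11.5 pools was chosen after seeing the data. The members and marker lists were chosen with earlier results of these data known. Genes named are all members, Gata3, Ptprc, 7 regulators and, per list, the gene with most CPM and the largest called rise and fall, and others named as part of a count or as values at 0 were chosen after their values were seen. Of 10 erythroid markers, Ahsp was not in the table. Positions came from GENCODE M21 and promoters from RefSeq. Python 3.11.15 with pandas 2.3.3 and matplotlib 3.10.9 made tables and figures.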

Additional observations from a re-analysis of the deposited data

Results flagged for a closer look

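For 25 members the log2 difference between Gata3-GFP+ and Gata3-GFP- cells was larger in HCs than in ECs past the threshold of edgeR's quasi-likelihood test of that difference, with adjusted p values from 3.96e-14 (Clec1b) to 0.00444 (Itgb3). Of all 17851 genes tested, 14.1% passed with the larger log2 difference in HCs, and 22.7% passed in either direction. Among the granule and secreted proteins, the difference in HCs minus that in ECs was 4.14 for Pf4, 6.80 for Ppbp, 2.98 for Thbs1, 2.95 for F5, 6.86 for Mmrn1 and 2.40 for Serpine2. Among the adhesion receptors it was 3.72 for Itga2b, 2.18 for Itgb3, 2.96 for Gp1ba, 4.86 for Gp1bb, 4.81 for Gp5, 7.03 for Gp6, 4.23 for Gp9, 4.19 for Treml1, 6.72 for Clec1b and 2.80 for Cd9. Mmrn1, Clec1b, F2rl3, Trpc6 and Rasgrp2 combined a rise in HCs with a fall in ECs, each past the threshold. Gp6 and Gp5 were too low in ECs for a test there. For the agonist receptors it was 5.25 for F2rl2, 5.77 for F2rl3 and 3.01 for P2ry1. For the members of the cytoskeleton, granule traffic, signalling and ion flow it was 6.73 for Tubb1, 2.73 for Rab27b, 2.15 for Plek, 1.84 for Bin2, 6.69 for Trpc6 and 3.14 for Rasgrp2. Several of these sizes are uncertain because a group was near 0: Gp5, Gp6, Tubb1 and F2rl2 reached 10 counts in fewer than 5 Gata3-GFP+ EC pools, Gp1ba, Gp5, Gp6, Tubb1, Treml1 and F5 in fewer than 5 Gata3-GFP- EC pools, and Gp6 and Trpc6 in 3 Gata3-GFP- HC pools each. The cause of these differences was not tested.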

How the results depend on the processing

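In HCs, 30 members passed, all higher, with RLE, ERCC or scran size factors, without a gene filter, with at least 10 counts in at least 20 pools, with DESeq2's Wald test, at a log2 fold change beyond 1 and without each Gata3-GFP+ HC pool in turn (30 to 30). With scanpy's t-test 29 passed, without Nfe2. At an adjusted p under 0.05, and in 1 fit of the 4 E10.5 populations, 31 passed, with Selp added. Over all genes 4307 passed, 3045 to 6027 under the other settings except a log2 fold change beyond 1, which left 2457 by its own construction. Without each Gata3-GFP+ HC pool in turn, 4086 (pool 15) to 4478 (pool 1) passed.

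In ECs 14 members passed, beside 35.98% of all genes, and 11 with ERCC factors, beside 44.03%. With DESeq2 15 passed, and with the other settings 14. In MCs 1 passed, beside 4.36% of all genes, and 2 with DESeq2 (Itgb3 added). In SNS cells 1 passed, beside 3.87%. Without the 12 pools that went against their label, 3 passed in MCs and 2 in SNS cells, beside 10.4% of all genes in each. Why those pools went against their label was not tested. The count of 25 members that differed between HCs and ECs was the same with RLE and ERCC factors, as were the 31 between Gata3-GFP+ HCs and ECs. Beside the 25, 22.7% of all genes passed, 22.5% with RLE and 32.3% with ERCC factors. Beside the 31, the shares were 43.25%, 43.1% and 54.2%. No called member changed direction under a setting tried.

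No paired analysis was possible because the columns carry no replicate numbers. Selp had few counts in HCs, and 18 members in MCs and 19 in SNS cells had too few for a test. No molecular identifiers mark duplicates of the amplified cDNA. A median of 31 members reached 1 CPM in a Gata3-GFP+ HC pool and 30 reached 10 counts.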
